A study of Mus musculus with 6 samples.

Results

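The genes described here encode the proteins of the mitochondrial ribosome. They were chosen by symbol, Mrpl for the large subunit or Mrps for the small subunit followed by a number, among the probe sets that the platform annotation assigns to 1 gene. That rule found 76 genes of 18193 on the array, 47 with an Mrpl symbol and 29 with an Mrps symbol, and each was read from its brightest probe set of 156. The study compared T cells of miR-142 knockout (KO) mice with those of wild-type (WT) littermates on Affymetrix arrays, 3 KO arrays and 3 WT arrays, each from a separate spleen. All 6 mice were 10-week-old males of C57BL/6 background, and the T cells were left after negative selection, which removes the other cells with antibodies. The labels name the genotype only as KO or WT and give neither a promoter nor a Cre driver. They do not say in which other cells of the mouse the gene was deleted.

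Mitochondria translate the few proteins encoded in their own DNA, which are core subunits of the respiratory chain and of ATP synthase, on a ribosome of their own. Its RNA comes from mitochondrial DNA, while its proteins are encoded in the nucleus, made in the cytosol and imported. Part of these proteins have counterparts in bacterial ribosomes, and the rest occur only in mitochondria. T cells build up mitochondria and mitochondrial translation when they are activated and grow.

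The deleted gene gives a pair of mature microRNAs, shown because they define the genotype; the capitals mark the seed, bases 2 to 8, by which a microRNA recognises its targets. Sequences and positions are from RefSeq on build GRCm38.p6, both on the plus strand.
mmu-miR-142a-5p, chr11:87756867-87756887: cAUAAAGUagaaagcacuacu
mmu-miR-142a-3p, chr11:87756903-87756925: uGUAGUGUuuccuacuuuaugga

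The probe set annotated to Mir142 read 5.97, 5.88 and 5.90 in KO, against 7.93, 8.13 and 7.67 in WT, as log2 intensity, so the 3 KO arrays lay below the 3 WT arrays (difference -1.99 ± 0.13 SE, adjusted p = 6.60e-05, limma). Arrays of one genotype correlated at 0.986 to 0.995 among KO and 0.994 to 0.996 among WT, and at 0.940 to 0.965 between genotypes. The T cell label did not describe the KO arrays fully: the mean of 11 measured T cell markers was 10.36, 9.17 and 10.56 in KO, against 12.01 ± 0.0099 in WT (SD, n = 3), with 0 risen and 11 fallen. Markers of other cells were higher in every KO array than in any WT array when averaged by list. The 11 neutrophil markers averaged 13.01, 10.64 and 11.24 in KO, against 7.42, 6.26 and 6.39 in WT (10 rose), the 11 of mast cells, basophils and eosinophils 10.72, 10.24 and 10.42 in KO, against 6.00, 6.12 and 6.04 in WT (11 rose), the 8 of monocytes and macrophages 10.06, 8.92 and 9.17 in KO, against 6.28, 5.88 and 6.09 in WT (7 rose) and the 7 of erythroid cells 10.83, 11.45 and 10.34 in KO, against 7.99, 7.55 and 7.72 in WT (7 rose). The 7 B cell markers averaged 7.56, 8.31 and 6.93 in KO, against 6.92, 6.42 and 6.38 in WT (2 rose), and the 11 markers of cycling cells 11.19, 11.52 and 11.05 in KO, against 9.18, 9.09 and 9.26 in WT (11 rose). The part of these cells and of cycling in the values below was not tested, and in bulk RNA fewer cells of a type and less RNA per cell cannot be told apart.

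Of the 76 mitochondrial ribosomal genes, 27 rose and 3 fell in the KO samples, and 46 did not pass the threshold of an adjusted p below 0.05 (limma, adjusted over all 45037 probe sets tested). Over all 18193 genes 18.6% rose and 18.6% fell. The share of members that rose was 35.5% and the share that fell 3.95%. Together 30 of the 76 members passed, a share near the 37.2% of all genes. The median difference of the members was 0.18 on the log2 scale, against -0.06 over all genes, and 58 of the 76 differences were above 0 (41.9% over all genes). In 29 members the lowest KO array exceeded the highest WT array, which held for 24.1% of all genes, and in 5 the highest KO array stayed under the lowest WT array (29.7% of all genes), so the genotypes overlapped in 42 members. As a measure of RNA quality, the 3′ minus 5′ signal of the controls for Actb was 0.40, 0.36 and 0.32 in KO, against 0.20, 0.16 and 0.23 in WT, and that of Gapdh was 0.18, -0.07 and -0.10 in KO, against -0.18, -0.17 and -0.15 in WT. Both were higher in all 3 KO arrays than in any WT array, and their part in these counts was not tested. The differences that passed had sizes between 0.30 and 0.95, and their standard errors were like those of other genes, with a median of 0.12 over the members and 0.11 over all genes.

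The count of risen members changed when an array was left out. It was 29 without KO array 1, 17 without KO array 2 or without KO array 3, 12 without WT array 1 or without WT array 2, and 20 without WT array 3. Fewer arrays give less power for every gene, and the share of all genes that passed in these fits is not given here. These counts alone therefore do not show a trait of the members or of 1 array. In every one of these 6 fits 12 of the 27 risen members passed again: Mrpl16, Mrpl18, Mrpl20, Mrpl28, Mrpl37, Mrpl42, Mrpl51, Mrps2, Mrps10, Mrps22, Mrps25 and Mrps28. Of the 3 that fell, Mrpl24 and Mrpl58 did. The mean of the 18 hybridization controls, spiked-in transcripts, was 9.82, 9.91 and 9.80 in KO, against 10.30, 10.10 and 10.23 in WT. Scaling the arrays to them added 0.37 to the difference of every probe set; 60 members then rose and 0 fell, beside 42.8% and 7.22% of all genes. Because that scaling shifts every gene alike, the median of the members stays 0.24 above that of all genes by construction. It stood 0.17 above it after repeated quantile normalization.

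**Figure D1:**
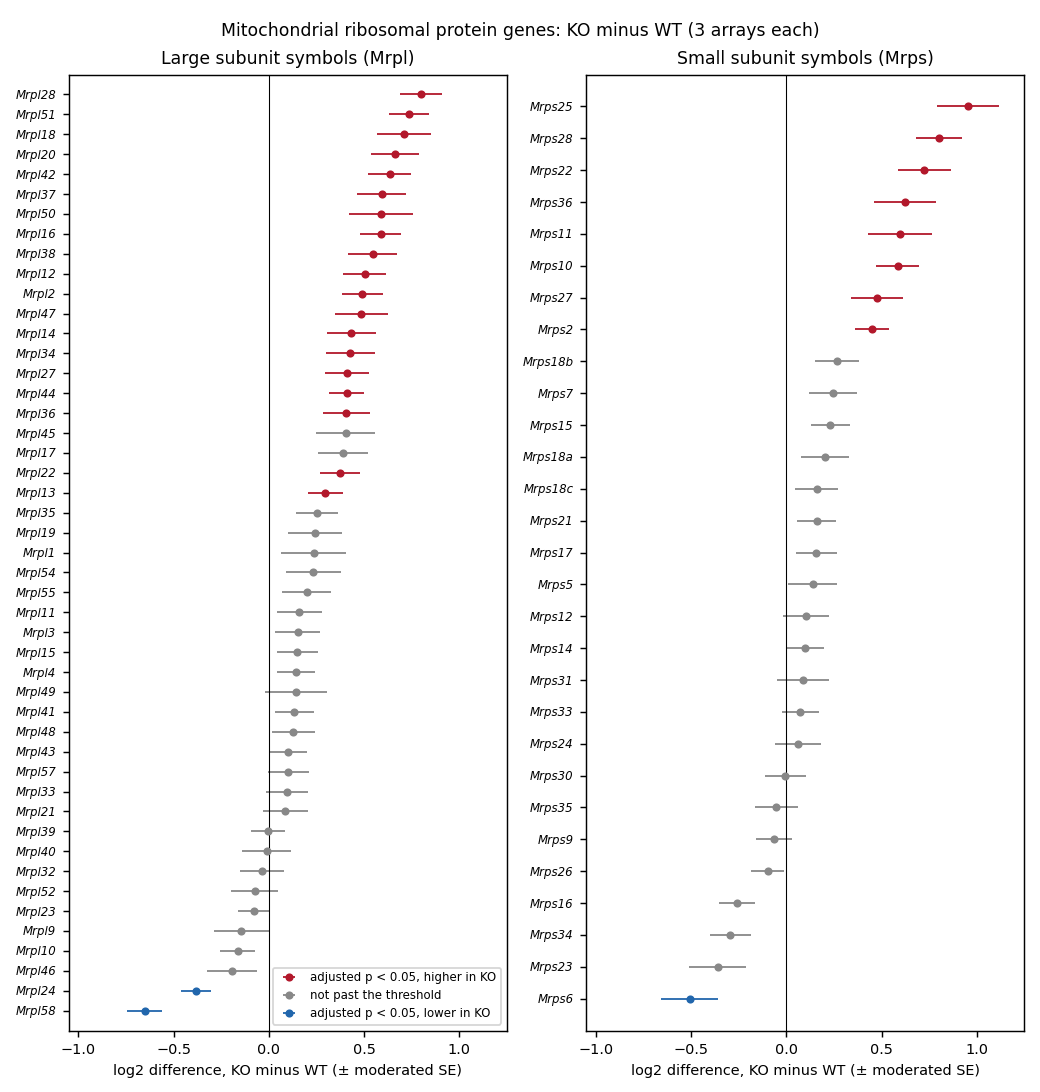
Difference in log2 intensity, KO minus WT, of each of the 76 genes, with bars of 1 moderated standard error on either side, sorted within each subunit (3 KO and 3 WT arrays). The red genes, 19 of the large and 8 of the small subunit, passed with KO higher, the blue ones, 2 of the large and 1 of the small subunit, passed with KO lower, and the grey ones did not pass.

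By symbol, 19 of 47 large-subunit genes rose and 2 fell, with a median difference of 0.24. Mrpl28, counterpart of bacterial protein L28, read 10.59, 10.85 and 10.59 in KO, against 9.77, 9.88 and 9.98 in WT, 1.74-fold higher in KO (difference 0.80 ± 0.11 SE, adjusted p = 0.00150). Mrpl51, found in mitochondrial ribosomes and not in bacterial ones, read 12.22, 12.40 and 12.22 in KO, against 11.41, 11.54 and 11.68 in WT (difference 0.74 ± 0.10 SE, adjusted p = 0.00179). Mrpl18, counterpart of the bacterial L18 that binds 5S ribosomal RNA, read 11.00, 11.40 and 11.07 in KO, against 10.38, 10.32 and 10.65 in WT (difference 0.71 ± 0.14 SE, adjusted p = 0.00805). In each of these genes the lowest KO array stood above the highest WT array, although WT array 3 came nearest. Mrpl20, whose bacterial counterpart L20 is needed early in assembly of the large subunit, read 10.94, 11.29 and 11.02 in KO, against 10.35, 10.32 and 10.60 in WT (difference 0.66 ± 0.13 SE, adjusted p = 0.00702). Mrpl42 read 11.28, 11.63 and 11.49 in KO, against 10.77, 10.80 and 10.93 in WT (difference 0.63 ± 0.11 SE, adjusted p = 0.00476), and Mrpl37 9.36, 9.82 and 9.55 in KO, against 8.96, 8.93 and 9.07 in WT (difference 0.59 ± 0.13 SE, adjusted p = 0.0118). Both are proteins without a bacterial counterpart, and again no KO array reached down to a WT array.

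Mrpl16, counterpart of the bacterial L16 near the tRNA sites, read 10.66, 10.96 and 10.90 in KO, against 10.16, 10.25 and 10.35 in WT (difference 0.59 ± 0.11 SE, adjusted p = 0.00607). Mrpl50, without a bacterial counterpart, read 9.40, 10.06 and 9.83 in KO, against 9.09, 9.13 and 9.30 in WT (difference 0.59 ± 0.17 SE, adjusted p = 0.0345), so KO array 1 lay just above WT array 3 and KO arrays 2 and 3 further up. The other 11 risen large-subunit genes were Mrpl38, Mrpl12, Mrpl2, Mrpl47, Mrpl14, Mrpl34, Mrpl27, Mrpl44, Mrpl36, Mrpl22 and Mrpl13, at differences between 0.30 (Mrpl13) and 0.54 (Mrpl38). Mrpl44, a protein related to ribonuclease III, read 10.23, 10.11 and 10.19 in KO, against 9.68, 9.74 and 9.89 in WT (difference 0.41 ± 0.09 SE, adjusted p = 0.0139). The 26 large-subunit genes that did not pass lay between -0.19 (Mrpl46) and 0.40 (Mrpl45), 18 of them above 0.

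By symbol, 8 of 29 small-subunit genes rose and 1 fell, with a median difference of 0.16. Mrps25, a protein without a bacterial counterpart, had the largest difference of all members, 9.52, 10.01 and 9.70 in KO, against 8.64, 8.69 and 9.05 in WT, 1.94-fold higher in KO (difference 0.95 ± 0.16 SE, adjusted p = 0.00400). Mrps28 read 10.96, 11.23 and 10.89 in KO, against 10.24, 10.10 and 10.35 in WT (difference 0.80 ± 0.12 SE, adjusted p = 0.00237). Mrps22, mutated in a human mitochondrial disease, read 10.19, 10.64 and 10.45 in KO, against 9.59, 9.64 and 9.88 in WT (difference 0.73 ± 0.14 SE, adjusted p = 0.00718). KO array 2 was the highest of the 6 arrays in all 3 genes. Mrps10, counterpart of bacterial S10, read 10.11, 10.29 and 10.19 in KO, against 9.52, 9.50 and 9.81 in WT (difference 0.58 ± 0.11 SE, adjusted p = 0.00708). Mrps2, counterpart of bacterial S2, read 9.92, 10.09 and 10.05 in KO, against 9.48, 9.61 and 9.62 in WT (difference 0.45 ± 0.09 SE, adjusted p = 0.00818), and Mrps27, a protein of the RNA-binding pentatricopeptide repeat family, 8.08, 8.45 and 8.16 in KO, against 7.58, 7.73 and 7.94 in WT (difference 0.48 ± 0.14 SE, adjusted p = 0.0355). The KO arrays were close together in Mrps2 and Mrps10, and KO array 1 came near WT array 3 in Mrps27.

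Mrps36 read 10.18, 10.76 and 10.20 in KO, against 9.70, 9.74 and 9.83 in WT (difference 0.62 ± 0.16 SE, adjusted p = 0.0252), with KO array 2 far above the other KO arrays. Its product is now known as a part of the 2-oxoglutarate dehydrogenase complex of the citric acid cycle and not as a ribosomal protein, so its symbol alone places it among the members. The 20 small-subunit genes that did not pass lay between -0.36 (Mrps23) and 0.27 (Mrps18b), 13 of them above 0.

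The 3 genes that fell were Mrpl58, Mrpl24 and Mrps6. Mrpl58, a peptidyl-tRNA hydrolase built into the large subunit that can release stalled peptides, read 10.60, 10.59 and 10.75 in KO, against 11.20, 11.33 and 11.36 in WT, which is 1.57-fold lower in KO (difference -0.65 ± 0.09 SE, adjusted p = 0.00175). Mrpl24, counterpart of bacterial L24 at the exit of the peptide tunnel, read 11.46, 11.54 and 11.53 in KO, against 11.88, 11.91 and 11.89 in WT (difference -0.38 ± 0.08 SE, adjusted p = 0.00917). In both genes the KO arrays lay below the WT arrays. Mrps6, counterpart of bacterial S6, read 9.63, 9.87 and 9.73 in KO, against 10.11, 10.08 and 10.56 in WT (difference -0.51 ± 0.15 SE, adjusted p = 0.0380), and WT array 3 stood apart from the other WT arrays; the call was kept in 2 of the 6 fits that leave out an array. A further 2 genes had no overlap between genotypes, with KO lower, without passing: Mrps16, counterpart of bacterial S16, with 11.52, 11.64 and 11.58 in KO, against 11.73, 11.80 and 11.98 in WT (-0.26, adjusted p = 0.0843), and Mrps34 with 10.96, 11.14 and 11.05 in KO, against 11.23, 11.29 and 11.52 in WT (-0.29, adjusted p = 0.0784). A further probe set, annotated to both Mrps34 and Nme3, stood at -0.11 (adjusted p = 0.587, limma). Its genotypes overlapped, with 9.70, 10.09 and 9.87 in KO, against 9.83, 9.98 and 10.18 in WT. Scaled to the hybridization controls, none of these 5 genes passed as lower, and Mrps16 and Mrps34 stood at 0.11 and 0.07.

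Sites of known function in the large subunit were each mixed. Of the lateral stalk, where translation factors dock, Mrpl12 rose (11.29, 11.50 and 11.47 in KO, against 10.79, 10.87 and 11.10 in WT; difference 0.50 ± 0.11 SE, adjusted p = 0.0139), and its anchor Mrpl10 and base Mrpl11 stood at -0.16 (adjusted p = 0.239) and 0.16 (adjusted p = 0.358). Mrpl12 has also been described to bind the mitochondrial RNA polymerase in mammals. Around the exit of the peptide tunnel, Mrpl22 and Mrpl47 rose (0.37 and 0.48), Mrpl24 fell, and Mrpl17, Mrpl23 and Mrpl45 did not pass (0.39, -0.08 and 0.40). Only 5 members were listed for the central protuberance, which faces the small subunit. Of these, Mrpl18 and Mrpl38 rose (0.71 and 0.54), whereas Mrpl40, Mrpl46 and Mrpl48 did not pass (-0.01, -0.19 and 0.13). Mrpl3, mutated in a human mitochondrial cardiomyopathy, stood at 0.15 (adjusted p = 0.381). In the small subunit, Mrps12 of the decoding centre stood at 0.10 (adjusted p = 0.563). The 3 genes with an Mrps18 symbol, relatives of bacterial S18, did not pass either: Mrps18a 0.20, Mrps18b 0.27 and Mrps18c 0.16.

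Members were also split by whether bacteria have a counterpart, to be read against the 18.6% of all genes that rose. In the large subunit 13 of 29 members with a counterpart rose and 1 fell, with a median of 0.25, and 6 of 18 without one rose and 1 fell, with a median of 0.14. In the small subunit 4 of 16 with a counterpart rose and 1 fell, with a median of 0.16, and 3 of 10 without one rose, with a median of 0.08; on so few genes these shares are near that of all genes. Mrps18a and Mrps30 carry small-subunit symbols, but structures of mammalian mitochondrial ribosomes place their products in the large subunit; neither passed, and Mrps30 stood at -0.01 (adjusted p = 0.975). Averaged over members, the large subunit minus the small subunit was 0.26, 0.25 and 0.27 in KO, against 0.20, 0.22 and 0.18 in WT. The arrays of the genotypes did not overlap, and the difference between them was 0.06 on the log2 scale. Counting Mrps18a and Mrps30 as large-subunit genes and leaving out Mrps36 gave the same difference of 0.06. The levels of different probe sets are not comparable, and no test was made on this value.

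Within each genotype the members moved together from array to array. KO array 2 was the highest KO array in 72 of the 76 genes (94.7%, against 44.8% of all genes) and KO array 1 the lowest in 65. WT array 3 was the highest WT array in 74 genes (97.4%, against 43.6% of all genes) and WT array 1 the lowest in 62. All 29 small-subunit genes had KO array 2 and WT array 3 on top. Averaged over the 76 genes, the log2 intensity was 10.41, 10.70 and 10.54 in KO, against 10.22, 10.29 and 10.46 in WT. KO array 1 therefore lay below WT array 3, the genotypes overlapped, and the difference of the means was 0.23. The spread between animals of one genotype was 0.14 (SD, 3 KO) and 0.12 (SD, 3 WT). The same arrays were on top in mitochondrial import, where KO array 2 was the highest KO array in 19 of 21 genes and WT array 3 the highest WT array in 19 of 21. In the 46 cytosolic ribosomal protein genes, chosen by symbol after the members had been examined, KO array 2 was the highest KO array in 23 and WT array 3 the highest WT array in 24. Among KO arrays, KO array 2 also had the highest means of the cycling, erythroid and B cell markers. It had the lowest means of the markers of T cells, of neutrophils, of monocytes and macrophages, and of mast cells, basophils and eosinophils. The part of any of these in the order of the arrays was not tested.

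**Figure D2:**
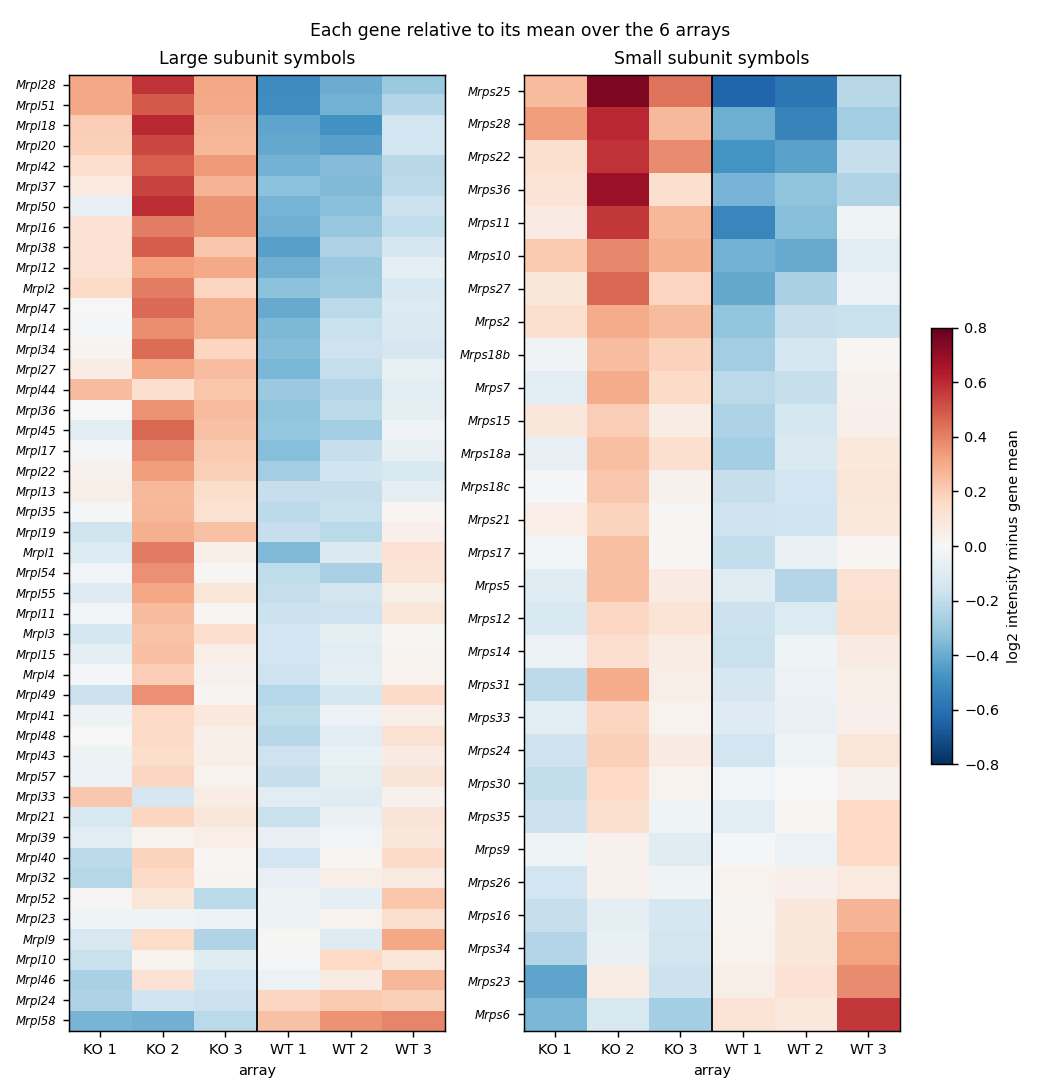
Log2 intensity of each member on each array minus its mean over the 6 arrays, red above and blue below, sorted by the difference KO minus WT. The column of KO array 2 is the reddest of the KO columns in 72 of 76 rows, and that of WT array 3 is the highest of the WT columns in 74.

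**Figure D3:**
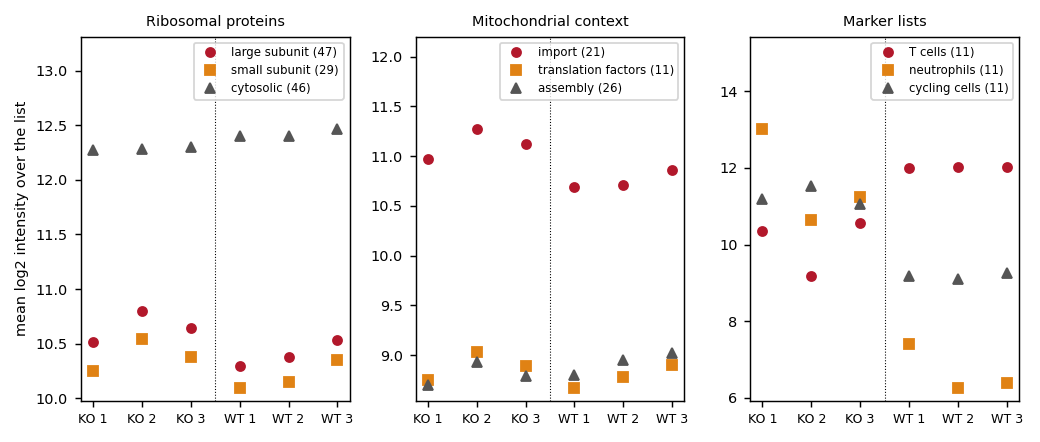
Mean log2 intensity over the genes of each list (number of genes in brackets) on the 3 KO and 3 WT arrays; each point is 1 array, and only the shape of a list over arrays can be read, not the level of one list against another. Both ribosomal subunits peak at KO array 2 among KO and at WT array 3 among WT, and KO array 1 lies below WT array 3 in both.

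An alternative chosen after the data had been examined set each array to the mean of the 76 members, which removes their shared movement and leaves unequal change among them. By construction the members then balance around 0, and 11 rose and 8 fell, beside 12.2% and 29.1% of all genes. The 11 that rose were all among the 12 stable risen members named above, without Mrps2. Besides Mrpl58, Mrps6 and Mrpl24, which stood at -0.88, -0.74 and -0.61, 5 more members fell relative to the rest: Mrps23 at -0.59, Mrps34 at -0.52, Mrps16 at -0.49, Mrpl46 at -0.42 and Mrpl10 at -0.39. Their values as deposited were -0.36, -0.29, -0.26, -0.19 and -0.16, so these 5 are lower against the other members and not shown to be lower in the KO samples.

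Promoters of 67 members were found in the RefSeq table, in 73 windows that run from 250 bases before to 50 bases after a start. Exact letters of known motifs were searched on both strands: GCGCATGC for NRF1, CCGGAAGT for ETS factors such as GABP, AAGATGGC for YY1, CACGTG, the E-box bound by MYC among others, and TTTCCCGC or TTTGGCGC for E2F. NRF1, GABP and YY1 are known regulators of nuclear genes for mitochondria. Counted by gene, since windows of one gene can overlap, the NRF1 letters were in 8 of 67 members (11.9%, against 3.05% of 27025 genes with a promoter), the ETS letters in 12 (17.9% against 4.31%) and the YY1 letters in 12 (17.9% against 3.19%). E-boxes were in 5 members (7.46% against 8.09%) and E2F letters in 2 (2.99% against 1.80%). Among the 24 risen genes with a promoter, 1 held NRF1 letters, 5 ETS, 5 YY1, 4 an E-box and 0 E2F. Among the 40 that did not pass, 7 held NRF1 letters, 7 ETS, 7 YY1, 1 an E-box and 2 E2F, and the 3 that fell held none of them. The genes they are set against were not limited to those on the array or to genes as bright as the members. These are descriptions of letters in a window and not of binding.

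The windows of 5 members are printed to show what these counts rest on: Mrpl51 with ETS letters and Mrpl20 with an E-box, which rose, Mrpl58, which fell and holds none, and the neighbours Mrps11 and Mrpl46, which share a window. Capitals mark the motif found, and Mrps11 holds the YY1 letters on the opposite strand. All are from RefSeq on GRCm38.p6 and read 5′ to 3′ along the gene's strand.
Mrpl51, chr6:125191950-125192249, plus strand: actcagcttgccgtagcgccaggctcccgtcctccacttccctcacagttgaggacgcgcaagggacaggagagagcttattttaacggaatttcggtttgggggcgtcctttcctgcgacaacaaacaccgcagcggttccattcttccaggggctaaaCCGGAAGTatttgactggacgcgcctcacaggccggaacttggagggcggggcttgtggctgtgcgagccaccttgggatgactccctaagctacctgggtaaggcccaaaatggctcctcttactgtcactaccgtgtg
Mrpl20, chr4:155802628-155802927, plus strand: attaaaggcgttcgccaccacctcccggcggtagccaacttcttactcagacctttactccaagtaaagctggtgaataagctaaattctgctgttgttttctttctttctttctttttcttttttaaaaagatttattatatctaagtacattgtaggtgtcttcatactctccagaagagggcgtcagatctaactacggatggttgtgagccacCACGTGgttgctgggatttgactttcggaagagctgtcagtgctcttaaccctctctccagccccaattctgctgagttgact
Mrpl58, chr11:115403502-115403801, plus strand: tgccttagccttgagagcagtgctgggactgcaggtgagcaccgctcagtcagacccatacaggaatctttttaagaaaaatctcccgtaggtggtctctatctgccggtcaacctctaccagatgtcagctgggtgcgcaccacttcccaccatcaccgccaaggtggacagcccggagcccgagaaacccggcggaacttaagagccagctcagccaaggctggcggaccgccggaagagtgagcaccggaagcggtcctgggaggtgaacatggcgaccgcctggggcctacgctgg
Mrps11, chr7:78782881-78783180, plus strand: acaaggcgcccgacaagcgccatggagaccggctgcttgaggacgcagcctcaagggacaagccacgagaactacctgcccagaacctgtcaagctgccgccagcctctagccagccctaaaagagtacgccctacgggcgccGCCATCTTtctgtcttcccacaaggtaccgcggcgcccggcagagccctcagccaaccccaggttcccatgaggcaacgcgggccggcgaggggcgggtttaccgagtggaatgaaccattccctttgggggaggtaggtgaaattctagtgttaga
Mrpl46, chr7:78783040-78783339, minus strand: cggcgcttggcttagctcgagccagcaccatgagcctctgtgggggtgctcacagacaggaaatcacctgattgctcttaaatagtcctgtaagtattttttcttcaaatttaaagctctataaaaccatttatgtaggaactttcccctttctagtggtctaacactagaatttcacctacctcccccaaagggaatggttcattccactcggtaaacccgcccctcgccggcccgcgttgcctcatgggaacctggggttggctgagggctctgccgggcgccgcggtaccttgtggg

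Mrps11 and Mrpl46 face away from each other on chromosome 7. Their starts are 42 bases apart, and their printed windows share 141 bases. Mrps11 rose, with 9.28, 9.78 and 9.48 in KO, against 8.69, 8.87 and 9.18 in WT (difference 0.60 ± 0.17 SE, adjusted p = 0.0331), and Mrpl46 did not pass, with 9.80, 10.18 and 9.91 in KO, against 10.01, 10.12 and 10.32 in WT (difference -0.19 ± 0.13 SE, adjusted p = 0.317). Mrps11 minus Mrpl46 was -0.52, -0.40 and -0.43 in KO, against -1.32, -1.25 and -1.15 in WT, which removes what both genes share on an array. That difference of 0.79 between genotypes was larger than the spread within either, but with 3 arrays against 3 the two-sided exact permutation test gave p = 0.1, the smallest it allows. The pair was picked after its values had been seen, so this test gives no support for a difference.

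Several members are measured by more than 1 probe set, and these did not always give the same call. Of the 30 members that passed, 16 had further probe sets, and in 5 of them (Mrpl28, Mrpl44, Mrpl50, Mrpl58 and Mrps25) another one passed in the same direction; none passed in the opposite direction. The next brightest probe set of Mrps25 gave 0.92, of Mrpl28 0.88, of Mrpl50 0.53, of Mrpl44 0.42 and of Mrpl58 -0.37, that of Mrpl58 being dim, with a mean log2 intensity of 4.20. In the other 11 no further probe set passed: the next brightest gave 0.52 for Mrpl27 (0.41 used), 0.36 for Mrpl13 (0.30), 0.22 for Mrpl51 (0.74), 0.10 for Mrpl34 (0.43) and 0.10 for Mrps2 (0.45). It gave -0.02 for Mrpl42 (0.63 used), -0.02 for Mrps10 (0.58), -0.04 for Mrpl47 (0.48), -0.12 for Mrpl38 (0.54), -0.29 for Mrps11 (0.60) and -0.47 for Mrps6 (-0.51). Those of Mrpl42, Mrps10 and Mrps11 were dim too, with mean log2 intensities of 3.57, 5.90 and 5.14.

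In 7 members the probe set used did not pass while another did. Mrpl1 stood at 0.24 on the probe set used and at 0.81 on a probe set nearly as bright (8.32, 8.64 and 8.32 in KO, against 7.63, 7.58 and 7.64 in WT; adjusted p = 0.00149), where no KO array overlapped the WT arrays. The values that follow are of the probe set used and then of the one that passed. Mrps15 gave 0.23 and 0.51, Mrpl15 0.15 and 0.51, Mrpl35 0.25 and 0.94, and Mrpl57 0.10 and 0.43. In all of them KO was higher on the probe set that passed. Mrpl9 gave -0.15 and -0.65, and Mrps21 gave 0.16 and -0.47. The probe sets that passed in Mrpl35, Mrpl57 and Mrps21 were dim, with mean log2 intensities of 5.18, 5.46 and 4.84. In Mrpl15, Mrpl35 and Mrpl9 brighter unused probe sets did not pass. They gave 0.24, 0.24, 0.23 and 0.11 in Mrpl15, -0.0002 in Mrpl35 and -0.30 in Mrpl9. In 7 of the 19 other members with further probe sets and no call on any, the next brightest had the opposite sign. Mrpl30 and Mrpl53 were not among the members because their probe sets also carry another gene: the one shared with Ccdc142 and Mrpl53 stood at 0.92, and the brighter one shared with Gm6238 and Mrpl30 at -0.19.

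Proteins of the mitochondrial ribosome with other symbols, listed together with the insertase Oxa1l, held 1 risen and 0 fallen of 5 measured. Ptcd3, an RNA-binding protein of the small subunit, rose (10.40, 10.62 and 10.52 in KO, against 10.15, 10.20 and 10.12 in WT; difference 0.35 ± 0.09 SE, adjusted p = 0.0238). Dap3 and Chchd1 of the small subunit stood at 0.10 (adjusted p = 0.511) and 0.13 (adjusted p = 0.466), Gadd45gip1 of the large subunit at 0.30 (adjusted p = 0.299), and Oxa1l, the inner-membrane insertase to which the ribosome docks, at 0.31 (adjusted p = 0.0679). Factors that assemble the ribosome or modify its RNA held 1 risen and 7 fallen of 26 (3.85% and 26.9%). Mettl17, needed for the small subunit, averaged 8.86 ± 0.12 in KO and 9.67 ± 0.21 in WT (SD, n = 3 each; difference -0.81 ± 0.13 SE, adjusted p = 0.00278). Mrm1, a methyltransferase of mitochondrial ribosomal RNA, read 8.03, 8.16 and 8.01 in KO, against 8.73, 8.85 and 8.95 in WT (difference -0.78 ± 0.10 SE, adjusted p = 0.000954), and the GTPase Mtg2 8.56, 8.83 and 8.89 in KO, against 9.40, 9.67 and 9.48 in WT (difference -0.76 ± 0.12 SE, adjusted p = 0.00315). The pseudouridine synthase Rpusd4 fell (-0.57, adjusted p = 0.0149), and Noa1, a GTPase, rose (0.53, adjusted p = 0.0101). Scaled to the hybridization controls, the balance turned to 12 risen and 1 fallen (Mrm1). Over all genes 18.6% rose and 18.6% fell as deposited, and 42.8% rose and 7.22% fell with that scaling. The 12 risen of 26 are near that share of all genes, and the lists below are to be read against the same shares. The medians of the assembly list and of the members were 0.02 and 0.18 as deposited, and the scaling moves both by the same amount.

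Mitochondrial translation factors held 4 risen and 1 fallen of 11 (7 and 1 scaled to the hybridization controls). As deposited 36.4% of this list rose, against 18.6% of all genes. The elongation factor Gfm1 (0.58, adjusted p = 0.0108), the exchange factor Tsfm (0.52, adjusted p = 0.0138) and Mtres1, which rescues stalled ribosomes (0.47, adjusted p = 0.0145), rose, and the initiation factor Mtif3 fell (7.46, 7.31 and 7.54 in KO, against 8.07, 8.30 and 8.43 in WT; difference -0.83 ± 0.12 SE, adjusted p = 0.00185). Of 19 genes for charging mitochondrial tRNAs, 4 rose and 4 fell, with Gatc (0.98, adjusted p = 0.000877), a subunit of the amidotransferase that makes glutaminyl-tRNA, Yars2 (0.67, adjusted p = 0.0338) and Lars2 (0.58, adjusted p = 0.0130) higher and Wars2 lower (-0.50, adjusted p = 0.0193). As deposited 21.1% of the 19 rose and 21.1% fell, near the 18.6% each of all genes. Scaled to the hybridization controls, 13 of the 19 rose and 0 fell, so the fall of Wars2 was lost with that scaling. Of 14 genes for replication and transcription of mitochondrial DNA, 3 rose and 3 fell (7 and 2 with that scaling, which loses the fall of Polg2). The shares as deposited, 21.4% each, are near those of all genes too. Slirp, which stabilises mitochondrial messenger RNAs, rose (11.02, 11.28 and 11.17 in KO, against 9.98, 9.98 and 10.35 in WT; difference 1.05 ± 0.13 SE, adjusted p = 0.00102), and Mterf2 (-1.04, adjusted p = 0.0102), Mterf1a (-1.02, adjusted p = 0.00101) and Polg2 (-0.69, adjusted p = 0.00504) fell.

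Mitochondrial import held 11 risen and 0 fallen of 21 (19 and 0 scaled to the hybridization controls). As deposited 52.4% of this list rose, against 18.6% of all genes. The chaperonin Hspd1 read 12.46, 12.86 and 12.73 in KO, against 11.77, 11.77 and 11.72 in WT (difference 0.93 ± 0.12 SE, adjusted p = 0.00102), and the outer-membrane channel Tomm40 9.53, 10.06 and 9.79 in KO, against 8.95, 8.91 and 8.99 in WT (difference 0.84 ± 0.14 SE, adjusted p = 0.00327). Timm8a1 (0.85, adjusted p = 0.00238) and Timm50 (0.76, adjusted p = 0.00431) rose as well. Among 11 regulators of nuclear genes for mitochondria 0 rose and 2 fell, Gabpb2 (-0.49, adjusted p = 0.00781) and Ppargc1b (-0.44, adjusted p = 0.0408); Nrf1, Yy1 and Gabpa did not pass (-0.25, -0.19 and -0.08), nor did Myc (0.31). The 2 falls make 18.2% of this list, near the 18.6% of all genes. With the scaling to hybridization controls both falls were lost, and 3 of the 11 rose. The 46 cytosolic ribosomal protein genes held 2 risen (4.35%) and 6 fallen (13.0%) genes and a median of -0.08. With that scaling 18 rose, near the 42.8% of all genes, and 1 fell. The median was then 0.29, against 0.31 over all genes.

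**Figure D4:**
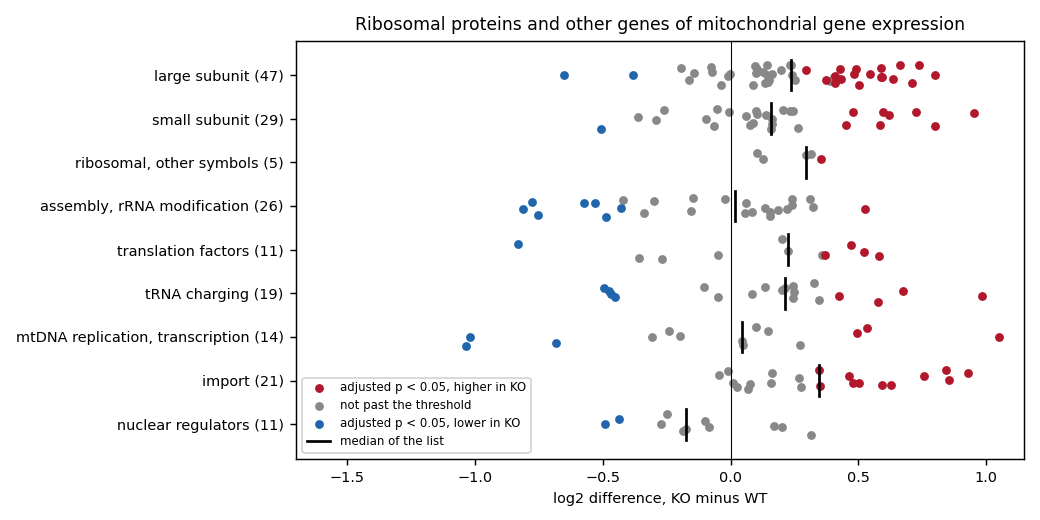
Difference in log2 intensity, KO minus WT, of every measured gene of the mitochondrial lists (number of genes in brackets), each point 1 gene, red for adjusted p below 0.05 with KO higher, blue for the same with KO lower, grey for genes that did not pass, and a black bar for the median. Import has the highest median of these lists, 0.35, and the assembly factors hold 7 blue points.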

How the data were processed

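The deposited table holds log2 intensities of 6 Affymetrix 1-colour arrays, made with RMA (version not given) per the submitters' processing notes. Per the labels, amplification used oligo(dT) with random primers and a biotin label. The values were used as deposited, without a filter or pseudocount. No detection call comes with them, and the change of a dim probe set is likely understated. Of 45101 probe sets 64 array controls were left out. The platform annotation gave 1 gene for 34945 of the rest, several for 932 and did not list 9160; Entrez IDs linked 34741 of them with the RefSeq genes of GRCm38.p6, which changed 0 symbols. The brightest probe set on average stood for each gene, and 7 among the members have a suffix (_s_at or _x_at) that can cross-hybridise.

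Genotype was the single term of a limma model (lmFit, eBayes; limma 3.58.1, R 4.3.3) over all 45037 probe sets, with two-sided p values and Benjamini-Hochberg adjustment over the same probe sets. Rose, fell and passed stand for an adjusted p below 0.05. On simulated arrays of the same size the fit recovered 6 of 67 probe sets shifted by 0.5 on the log2 scale, 48 of 67 shifted by 1 and 62 of 66 shifted by 2, with 3 false calls. Only these probe sets were shifted in the simulation, whereas 37.2% of all genes passed in the data. The adjustment was therefore stricter in the simulation, and its recovery does not measure the power of the fit on the real arrays. Members, lists, tests and naming were chosen with earlier results of these data known. Named genes are the 8 largest rises and falls of each subunit, preset landmark members, the ribosomal proteins with other symbols, up to 4 called genes per list, and members whose probe sets disagree; the remaining members are named to account for all. Groups follow the genotype in the labels. The number of arrays limits the precision. The effect of other settings is given at the end.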

Additional observations from a re-analysis of the deposited data

How the results depend on the processing

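As deposited, 27 members rose and 3 fell (19 and 2 of the large, 8 and 1 of the small subunit), with a median of 0.18 and a large-minus-small median of 0.078. Scaling to the hybridization controls gave 60 and 0 (38 and 0; 22 and 0), a median of 0.55, and 112 risen and 15 fallen genes over the context and marker lists, against 71 and 28 as deposited. It also turned Mrpl10 to 0.20, Mrps16 to 0.11, Mrps30 to 0.36 and Mrps34 to 0.073. A minimum fold of 1.5 gave 13 and 1 (8 and 1; 5 and 0) and 18 fallen list genes. Repeated quantile normalization, intensity trend with robust fitting, and adjusted p below 0.10 each gave 5 fallen members, 3 of them of the small subunit. The single fallen small-subunit gene, Mrps6, was lost (0) when arrays were centred on their medians, which also put Mrps30 at 0.015, and when _s_at and _x_at probe sets were left out. Centring on the members, chosen after seeing the data, gave 11 and 8 (7 and 4; 4 and 4) and a median of -0.048, and turned Mrpl11 to -0.067, Mrpl3 to -0.076, Mrps12 to -0.12, Mrps18a to -0.023, Mrps18c to -0.067, Dap3 to -0.12 and Chchd1 to -0.10. Averaging all probe sets of a gene put Mrpl3 at -0.11. Leaving out dim probe sets and weighting arrays moved none of these counts by over 1.5 times. The cause of these shifts was not tested, except that a stricter threshold and a centring on the members act by construction.

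Leaving out each array in turn gave 12 to 29 risen and 2 to 4 fallen members, 7 to 21 risen and 2 fallen in the large subunit, 5 to 8 risen and 0 to 2 fallen in the small subunit, a median of 0.10 to 0.26 and a large-minus-small median of 0.068 to 0.115. The shares of all genes that passed in these fits are not given here. Mrps30 ranged from -0.087 (without KO array 2) to 0.090 (without KO array 1) and stood at 0.0091 without WT array 3. The replicate numbers did not pair the arrays: the correlations of same-numbered arrays about their group means were 0.10, -0.24 and -0.20, and 2 of 6 arrays were closest to their own number. With the replicate number as a block 23 members rose and 2 fell, with 0 fallen in the small subunit.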
